A study of Homo sapiens with 6 samples.

Results

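The FOS and JUN genes and their close relatives encode the subunits of activator protein 1 (AP-1), and their messages were followed in THP1 AML cells after a 6 h exposure to withaferin A (WFA). The 10 members were taken by name from the family: the FOS family (FOS, FOSB, FOSL1 and FOSL2), the JUN family (JUN, JUNB and JUND), BATF and BATF3, and ATF2. Each of the 10 had a row of its own among the 26485 gene rows of the table, and each was among the 12854 genes tested after the filter on low counts. FOSB was the member closest to that filter, with 9 to 48 reads per library, and it passed only through its WFA libraries. THP1 is a human cell line grown from an acute monocytic leukemia, and it stands for leukemic cells of this one line only. WFA is a steroidal lactone made by the plant Withania somnifera, studied here as a candidate agent against c-MYB, a transcription factor that leukemic cells depend on. All 6 libraries came from THP1 cells in the same culture medium, 3 with the solvent DMSO and 3 with WFA, and same-numbered libraries of the groups belong to the same experiment. The WFA concentration is 1 mM in the sample labels and 1 μM in the study's methods, which name the same 6 h exposure of THP1 cells, and the value of the methods is used here.

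AP-1 proteins are basic leucine zipper factors that bind DNA only as dimers. FOS proteins cannot pair with themselves and need a JUN protein, whereas JUN proteins pair with each other, with FOS proteins or with ATF proteins. FOS, FOSB, JUN and JUNB are classic immediate-early genes, whose messages appear within minutes of a stimulus and are short-lived, while JUND and ATF2 are made more steadily. BATF and BATF3 pair with JUN proteins but lack a transactivation domain, and they bind composite sites together with IRF4 or IRF8. In monocytic cells AP-1 acts downstream of the MAP kinases in the response to stress, cytokines and differentiation signals.

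The RefSeq promoters of the members (GRCh38.p14, 250 bases before to 50 bases after the start) were searched for short motifs of factors that act on them. A promoter was given for 7 members, namely FOS, FOSB, FOSL2, JUN, JUNB, JUND and BATF. The promoters of 3 FOS family members with a shared element, FOS, FOSB and FOSL2, and of the 2 JUN genes that rose, JUN and JUND, are printed 5′ to 3′. Capitals mark matches to the motifs named after them, on either strand.
FOS (chr14:75278578-75278877, plus strand): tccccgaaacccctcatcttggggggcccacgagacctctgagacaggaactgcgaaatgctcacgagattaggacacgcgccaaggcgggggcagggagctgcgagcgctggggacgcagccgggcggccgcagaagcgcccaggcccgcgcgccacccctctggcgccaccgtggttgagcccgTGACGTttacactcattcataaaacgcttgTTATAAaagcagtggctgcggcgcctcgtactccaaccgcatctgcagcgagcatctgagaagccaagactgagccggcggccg
FOSB (chr19:45467746-45468045, plus strand): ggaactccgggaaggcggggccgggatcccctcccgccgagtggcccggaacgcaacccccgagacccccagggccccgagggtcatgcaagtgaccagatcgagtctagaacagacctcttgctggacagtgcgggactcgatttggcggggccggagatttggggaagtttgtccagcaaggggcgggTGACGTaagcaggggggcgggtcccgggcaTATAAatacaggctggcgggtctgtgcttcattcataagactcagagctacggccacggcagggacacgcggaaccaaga
FOSL2 (chr2:28392608-28392907, plus strand): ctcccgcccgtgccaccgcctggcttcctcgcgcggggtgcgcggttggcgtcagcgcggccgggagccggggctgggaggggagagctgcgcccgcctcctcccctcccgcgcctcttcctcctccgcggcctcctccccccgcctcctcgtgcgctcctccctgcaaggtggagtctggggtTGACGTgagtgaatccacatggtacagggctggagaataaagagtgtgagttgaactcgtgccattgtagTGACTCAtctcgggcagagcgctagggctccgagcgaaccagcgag
JUN (chr1:58783998-58784297, minus strand): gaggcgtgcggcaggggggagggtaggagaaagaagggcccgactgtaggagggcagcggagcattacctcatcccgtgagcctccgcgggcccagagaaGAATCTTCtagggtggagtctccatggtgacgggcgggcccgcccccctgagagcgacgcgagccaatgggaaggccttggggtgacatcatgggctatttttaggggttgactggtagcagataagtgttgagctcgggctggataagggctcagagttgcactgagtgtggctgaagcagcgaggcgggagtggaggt
JUND (chr19:18281573-18281872, minus strand): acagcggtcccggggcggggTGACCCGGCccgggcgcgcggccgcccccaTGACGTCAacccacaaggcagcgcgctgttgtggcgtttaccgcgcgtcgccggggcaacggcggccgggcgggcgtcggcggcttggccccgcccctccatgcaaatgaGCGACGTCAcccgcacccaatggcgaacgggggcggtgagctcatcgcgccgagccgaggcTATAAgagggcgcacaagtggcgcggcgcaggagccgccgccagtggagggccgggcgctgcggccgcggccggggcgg

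FOS, FOSB, FOSL2 and JUND shared one stretch. TGACGT, the core of the cAMP response element, was present in FOS at position -64, in FOSB at -60, in FOSL2 at -66 and in JUND at -200, -198 and -87, counted from the start to the leftmost base of the match. This core was added to the search after the promoters had been read, and 7.98% of all 35116 promoters of this length held it. Its full palindrome TGACGTCA, which JUND carried at -200 and which contains the core on both strands, was present in 1.85% of promoters. TATAA, the core of the TATA box, stood at -33 in FOS, -30 in FOSB, -31 in JUNB and -29 in JUND, and in 20.4% of all promoters. GAANNTTC, the paired repeat of the heat shock element, was found in JUN at -150 and in BATF at -73, and in 6.77% of promoters. TGACNNNGC, the antioxidant response element, was found in JUND at -230 and -90, the second on the minus strand and overlapping a TGACGT match, and in 13.3% of promoters. The AP-1 site TGACTCA lay at 5 bases past the start of FOSL2 and in 4.95% of promoters. No CArG box, the site of serum response factor, was in any of the 7 windows, against 1.29% of all promoters, which describes only these windows. FOS and FOSB, whose promoters share the TGACGT core and the TATA box at nearly the same places, moved in opposite directions with WFA, as described next.

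WFA exposure changed the messages of 8 of the 10 members, 5 upwards and 3 downwards. FOSB, FOSL1, JUN, JUND and ATF2 were higher, and FOS, FOSL2 and BATF3 were lower, by the quasi-likelihood test of edgeR, with p-values adjusted over all genes by the Benjamini-Hochberg method. A log2 change is log2 of the WFA level over the DMSO level from that fit, with its standard error (SE). JUNB and BATF did not pass. FOSB, among the 5 higher, passed the filter on low counts only through its WFA libraries. The background was high, since 50.5% of all tested genes passed in one direction or the other, 25.8% higher and 24.7% lower, so that 8 of 10 members stand against a share this large among all genes. Groups did not overlap for 9 of the 10 members, against 58.1% of tested genes. Over 2-fold, 4 members were higher, against 8.11% of tested genes, and 1 was lower, against 5.20%. The median log2 change was 0.34 over the members and 0.02 over all tested genes. RNA came from whole cultures, where fewer cells of a type and less RNA per cell cannot be told apart.

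**Figure D1:**
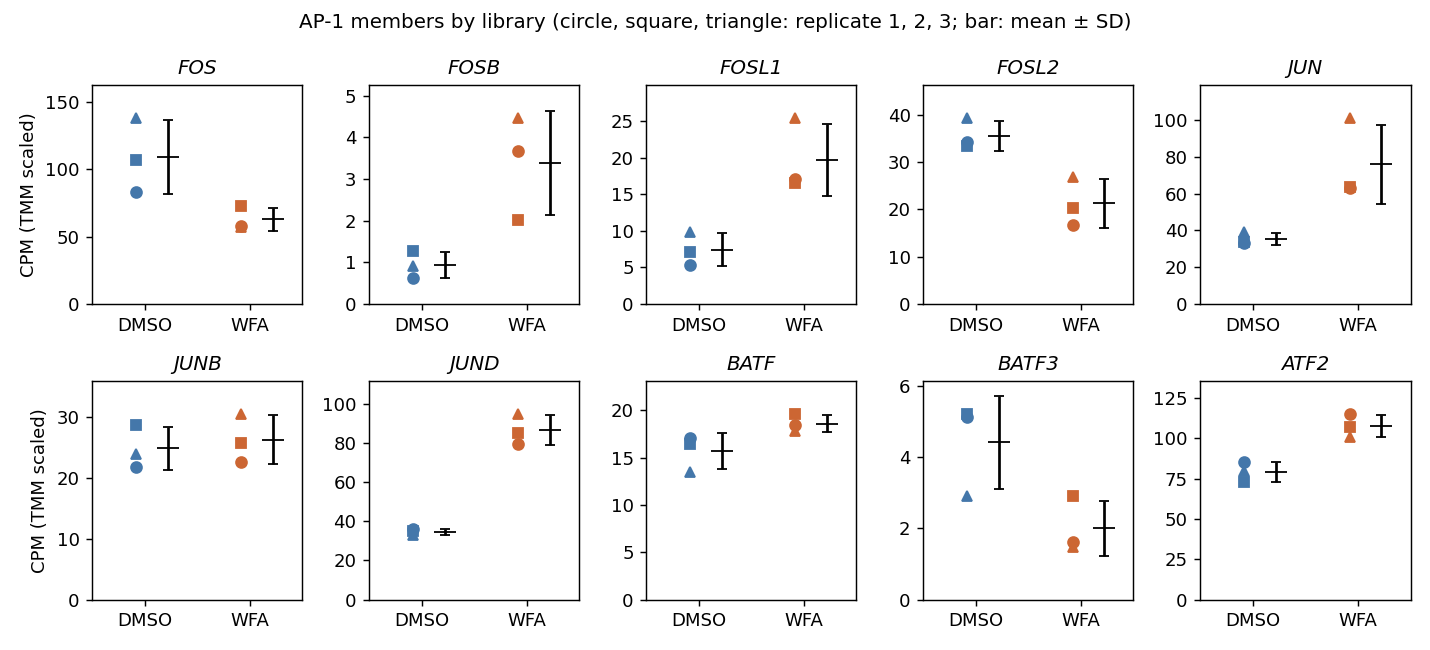
CPM (TMM-scaled) of each member in each library, with DMSO in blue and WFA in orange. Circles, squares and triangles are replicates 1, 2 and 3, the bar is the mean ± SD (n = 3), and each axis starts at 0. The WFA points of FOSB, FOSL1, JUN, JUND, BATF and ATF2 all lie above the DMSO points, those of FOS, FOSL2 and BATF3 all lie below them, and those of JUNB overlap.

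In the FOS family, the members moved in opposite directions. FOS, the prototype whose protein forms the most studied dimer with JUN, lies at chr14:75278774-75282230 on the plus strand (GRCh38). CPM is the count scaled to library size with the TMM factors. FOS had 82.9, 107 and 138 CPM in DMSO replicates 1, 2 and 3, and 58.1, 72.8 and 57.5 CPM in the WFA replicates. Each WFA library was below each DMSO library, and the DMSO libraries were spread more widely than the WFA libraries. The mean went from 109 ± 27.6 to 62.8 ± 8.66 CPM (mean ± SD, n = 3 each), a log2 change of -0.79 (SE 0.15, edgeR adjusted p = 0.000439) or 1.73-fold lower. Within experiments 1, 2 and 3 the log2 differences of CPM were -0.51, -0.55 and -1.25, so the third experiment had the widest gap.

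FOSL2, which encodes the FOS-related antigen Fra-2 and is expressed more steadily than FOS, lies at chr2:28392448-28417312 on the plus strand. Its levels were 34.1, 33.3 and 39.2 CPM with DMSO and 16.7, 20.2 and 26.9 CPM with WFA. The groups were apart, and replicate 3 was the highest of both. Means of 35.5 ± 3.21 and 21.3 ± 5.15 CPM (mean ± SD, n = 3 each) gave a log2 change of -0.74 (SE 0.15, edgeR adjusted p = 0.000688), 1.68-fold lower. FOSL2 and FOS fell by nearly the same amount on the log2 scale. FLJ31356, an antisense gene over the start of FOSL2, had 0 to 2 reads per library.

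FOSL1 encodes the other FOS-related antigen, Fra-1, a known target of AP-1 itself, and lies at chr11:65892049-65900573 on the minus strand. It was counted at 5.34, 7.10 and 9.82 CPM in the DMSO replicates and at 17.1, 16.6 and 25.4 CPM in the WFA replicates. Every WFA library stood well above the highest DMSO library. The rise was 2.66-fold, from 7.42 ± 2.26 to 19.7 ± 4.95 CPM (mean ± SD, n = 3 each), with a log2 change of 1.41 (SE 0.21, edgeR adjusted p = 6e-05). It was of similar size in the 3 experiments, with log2 differences of 1.59, 1.17 and 1.33.

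FOSB, an immediate-early gene close to FOS in sequence, lies at chr19:45467995-45475179 on the plus strand. It was the rarest member, with 9, 16 and 11 reads in the DMSO libraries and 45, 25 and 48 reads in the WFA libraries. These correspond to 0.633, 1.26 and 0.916 CPM with DMSO and 3.67, 2.01 and 4.46 CPM with WFA. WFA replicate 2 was the lowest of its group but still above all DMSO libraries. From 0.937 ± 0.315 to 3.38 ± 1.25 CPM (mean ± SD, n = 3 each), the log2 change was 1.84 (SE 0.35, edgeR adjusted p = 0.000482), 3.59-fold higher. FOSB thus had the largest fold and the largest standard error of the members. The filter on low counts asked for about 0.794 CPM in at least 3 libraries, which the 3 WFA libraries met. DMSO replicate 1 was below that level, so the DMSO libraries alone would not have passed FOSB. ERCC1 runs through the FOSB locus on the other strand, but in GENCODE 29 their exons share 0 bases. ERCC1 itself had a log2 change of -0.25 (SE 0.10, edgeR adjusted p = 0.0478), opposite to FOSB.

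The JUN family was higher in 2 of 3 members. JUND, which encodes the JUN protein that is present in resting cells, is a gene of a single exon at chr19:18279760-18281622 on the minus strand. It had 36.0, 35.1 and 32.9 CPM with DMSO and 79.6, 85.0 and 94.7 CPM with WFA. Both groups were tight, and they lay far apart. The mean rose from 34.7 ± 1.60 to 86.5 ± 7.63 CPM (mean ± SD, n = 3 each), 2.49-fold, with a log2 change of 1.32 (SE 0.10, edgeR adjusted p = 4.5e-08). This was the smallest p of the members, at rank 236 of the 12854 genes.

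JUN encodes c-Jun, the strongest transactivator of the family and an activator of its own promoter, and is a gene of a single exon at chr1:58780788-58784327 on the minus strand. DMSO replicates had 33.0, 33.6 and 39.2 CPM, and WFA replicates had 63.3, 63.4 and 101 CPM. WFA replicate 3 stood above the other two, which were almost equal. The log2 change was 1.11 (SE 0.16, edgeR adjusted p = 3.43e-05), a 2.15-fold rise from 35.3 ± 3.43 to 76.0 ± 21.8 CPM (mean ± SD, n = 3 each). Without WFA replicate 3 it was 0.85 and still past the threshold.

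JUNB encodes a weaker activator that can oppose c-Jun, and is a gene of a single exon at chr19:12791496-12793315 on the plus strand. Its 21.8, 28.6 and 23.9 CPM with DMSO and 22.5, 25.7 and 30.4 CPM with WFA overlapped, and JUNB was the one member for which they did. The log2 change of 0.08 (SE 0.14) had an edgeR adjusted p of 0.648, with means of 24.8 ± 3.51 and 26.2 ± 3.96 CPM (mean ± SD, n = 3 each). HOOK2, a cytoskeletal linker gene that spans JUNB on the opposite strand and shares 0 exon bases with it in GENCODE 29, had 40 to 86 reads per library and a log2 change of 0.80 (edgeR adjusted p = 0.00281).

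BATF3, needed for a class of dendritic cells, was at chr1:212686418-212699985 on the minus strand and was the member with the largest fall. It had 5.13, 5.21 and 2.91 CPM with DMSO and 1.63, 2.90 and 1.49 CPM with WFA. The groups only just failed to overlap, since DMSO replicate 3 and WFA replicate 2 were nearly equal. BATF3 went from 4.42 ± 1.30 to 2.01 ± 0.775 CPM (mean ± SD, n = 3 each), 2.19-fold lower, with a log2 change of -1.13 (SE 0.30, edgeR adjusted p = 0.00534). Each WFA library was nevertheless below the DMSO library of its own experiment, by log2 differences of -1.40, -0.75 and -0.78.

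BATF, known from T and B cells, lies at chr14:75522425-75547015 on the plus strand. Its levels were 17.1, 16.4 and 13.5 CPM with DMSO and 18.4, 19.6 and 17.8 CPM with WFA. All WFA libraries were above all DMSO libraries, yet the change did not pass the test, with a log2 change of 0.25 (SE 0.13, edgeR adjusted p = 0.131) on means of 15.7 ± 1.91 and 18.6 ± 0.959 CPM (mean ± SD, n = 3 each).

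ATF2 encodes a stress-activated partner of c-Jun that is switched on by phosphorylation, and is the longest member locus, at chr2:175072250-175168382 on the minus strand. With DMSO it had 85.3, 72.7 and 79.6 CPM, and with WFA 115, 107 and 101 CPM. The groups were apart. The rise from 79.2 ± 6.30 to 107 ± 7.28 CPM (mean ± SD, n = 3 each) was the smallest among the members that passed, 1.36-fold, with a log2 change of 0.44 (SE 0.09, edgeR adjusted p = 0.000897).

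**Figure D2:**
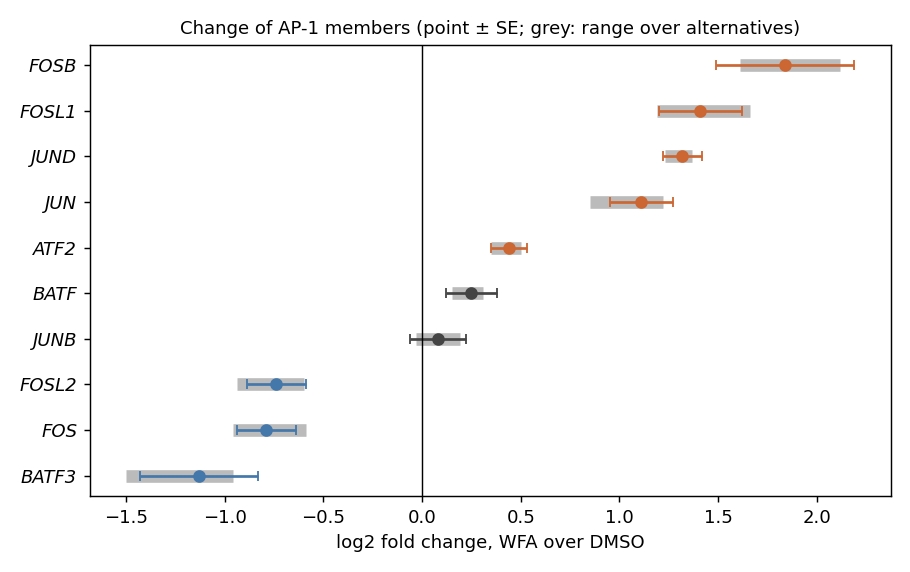
Log2 change of each member, WFA over DMSO, as points with standard errors, with grey bars from the lowest to the highest value over the alternative analyses. Orange points passed the edgeR test upwards and blue points downwards; the dark points of BATF (0.25) and JUNB (0.08) did not pass, and the grey bar of JUNB alone crosses 0.

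Levels of different members were compared per exon length, as RPKM, the CPM divided by the exon length in kilobases, with lengths from GENCODE 29. The length joined all exons of a gene's basic transcripts, 2938 bases for FOS with 14 exons and 1863 for JUND with 1. The annotation behind the counts is not known, so the order of members and the family shares can depend on these lengths. With DMSO, FOS was the most abundant member at 37.1 ± 9.39 RPKM (SD, n = 3), apart from JUND at 18.6 ± 0.859. JUND, ATF2, BATF and JUNB followed, and neighbours in this order overlapped in their libraries. JUN was apart below them at 9.96 ± 0.970 RPKM, and FOSL2, BATF3 and FOSL1 came next at means of 5.23, 4.51 and 4.03 RPKM, with overlapping neighbours. FOSB was far below at 0.169 ± 0.0568 RPKM. With WFA the order changed, and JUND was first at 46.4 ± 4.10 RPKM, apart from ATF2 at 22.8 ± 1.54. ATF2, JUN at 21.5 ± 6.16 and FOS at 21.4 ± 2.95 RPKM overlapped as neighbours, so that FOS went from the first to the fourth place. BATF at 19.0 ± 0.978 RPKM overlapped FOS and was apart from JUNB at 14.4 ± 2.17. FOSL1 at 10.7 ± 2.69 RPKM overlapped JUNB and was above FOSL2 at 3.13 ± 0.758. FOSB was last in both groups.

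As a share of the summed RPKM of the 10 members, the FOS family went from 36.7 ± 6.42% with DMSO to 22.1 ± 0.902% with WFA, and the JUN family from 33.5 ± 1.93% to 50.7 ± 3.64% (SD, n = 3 each). Shares of a whole move against each other, so they describe the make-up and not the amount. JUND alone made up 14.8 ± 1.61% and then 28.7 ± 0.311%, whereas FOS made up 29.2 ± 5.59% and then 13.3 ± 2.14%. Among FOS family messages, FOS held 79.5 ± 1.49% with DMSO and 59.9 ± 7.82% with WFA, and FOSL1 held 8.57 ± 0.583% and 29.7 ± 6.01%. Among JUN family messages, JUNB held 32.2 ± 3.19% and 17.5 ± 0.639%, and JUND held 44.2 ± 2.97% and 56.7 ± 3.32%.

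**Figure D3:**
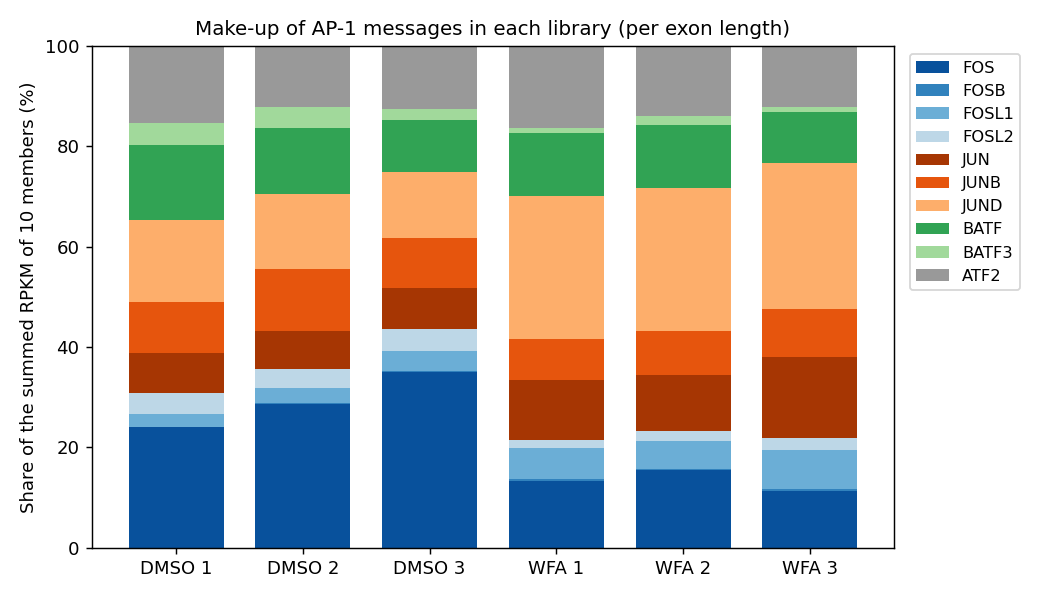
Share of each member in the summed RPKM of the 10 members, in percent, stacked for each library. Blue shades are the FOS family, orange shades the JUN family, green shades BATF and BATF3, and grey ATF2. FOS narrows from between 24.0% and 35.1% in the DMSO libraries to between 11.2% and 15.5% in the WFA libraries, while JUND widens from at most 16.4% to at least 28.5%.

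Ratios of counts inside a library do not depend on how libraries are scaled. The summed counts of the FOS family against those of the JUN family had log2 ratios of 0.44, 0.61 and 0.97 with DMSO and -0.79, -0.64 and -0.99 with WFA. FOS family reads outnumbered JUN family reads in each DMSO library, and the reverse held in each WFA library. Per exon length, with the joined lengths used here, this crossing was not seen in every experiment. In DMSO replicate 1 the FOS family made up 30.8% and the JUN family 34.5% of the summed RPKM. The difference was -1.48, or 2.78-fold, with p = 0.1 in an exact two-sided permutation test, which is the smallest p that 3 against 3 libraries allow. No ratio could therefore reach 0.05, and the 6 ratios of single members have p-values adjusted over the 6.

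FOSL1 against FOSL2, the pair of FOS-related antigens, went from -2.29 ± 0.34 to -0.11 ± 0.16 (log2, SD, n = 3 each), a difference of 2.18 or 4.53-fold (exact permutation p = 0.1, adjusted 0.15). FOSL1 reads thus went from a fraction of FOSL2 reads to near parity. FOSB against FOS went from -6.83 ± 0.42 to -4.26 ± 0.78, a difference of 2.56 (exact permutation p = 0.1, adjusted 0.15 for n = 3 each). FOSB had 9, 16 and 11 reads with DMSO and passed the filter on low counts only through its WFA libraries. The direction of this ratio is thus not independent of that filter, and the ratio only describes these libraries. BATF against BATF3 differed by 1.39 and JUNB against JUND by -1.23, both with groups apart and exact permutation p = 0.1, adjusted 0.15. These 4 pairs separated the groups, FOSB against FOS under the limit just given. JUN against JUND did not, at 0.02 ± 0.20 and -0.22 ± 0.28 (exact permutation p = 0.3, adjusted 0.36, n = 3 each). FOS against FOSL2 was 1.59 ± 0.28 and 1.58 ± 0.42, a difference of -0.01 (exact permutation p = 0.9, n = 3 each). In experiments 1 and 2 this ratio was higher with WFA, at 1.79 and 1.85 against 1.28 and 1.68, and in experiment 3 it was lower, at 1.10 against 1.81.

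**Figure D4:**
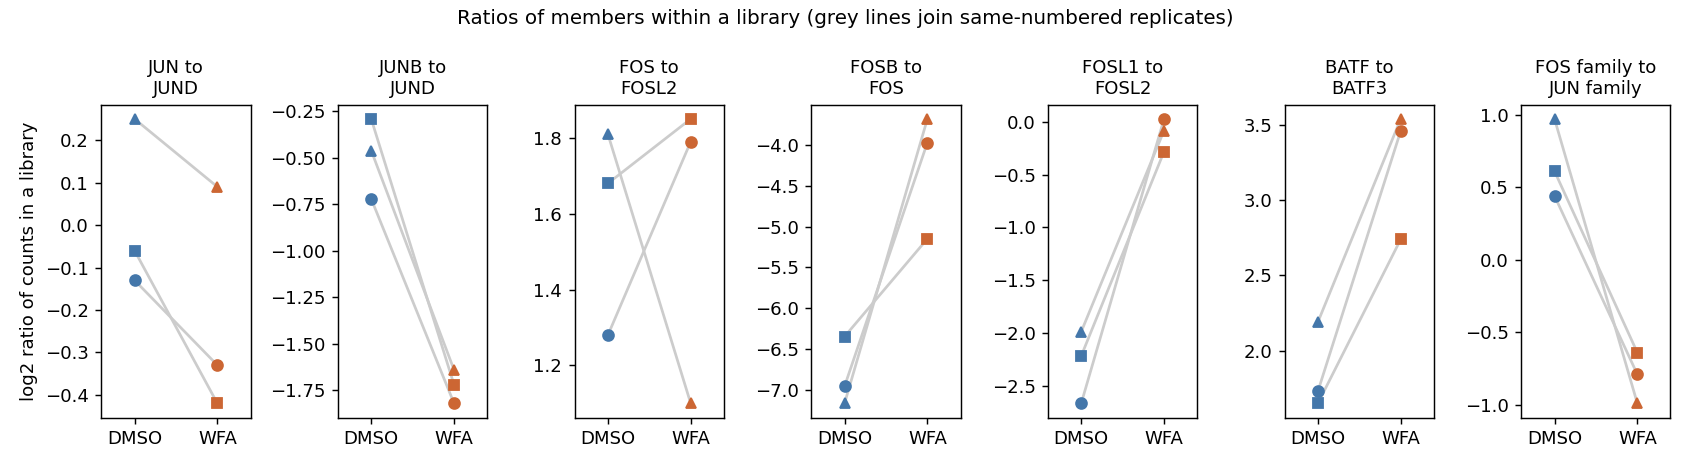
Log2 ratio of the counts of members named above each panel, in each library, with grey lines joining DMSO and WFA libraries of the same replicate number. The panels have axes of their own that do not start at 0. Groups are apart for JUNB to JUND, FOSB to FOS, FOSL1 to FOSL2, BATF to BATF3 and the summed families, and they overlap for JUN to JUND and FOS to FOSL2. In the FOS to FOSL2 panel the line of replicate 3 runs down while the others run up.

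Many immediate-early messages carry the pentamer ATTTA in the 3′ UTR, where proteins bind that hasten or slow their decay. In the longest 3′ UTR among the coding transcripts of each gene in GENCODE 29, FOS had 5 pentamers in 806 bases, or 6.20 per kb, the densest of the members, against a median of 1.48 per kb over 19121 genes. ATF2 had 8, FOSL2 had 9 in a much longer UTR, FOSB and JUN had 3 each, JUNB had 2, and FOSL1, JUND and BATF3 had 1. BATF had none in 344 bases. FOS alone among the members carried the overlapping nonamer ATTTATTTA, which 6.90% of genes have. A 30-base stretch with the most pentamers is shown for FOS, with its overlapping pair, and for the other FOS genes (GRCh38, pentamers in capitals). The FOS genes were shown because they moved in both directions. The stretches hold 2 of the 5 pentamers of FOS, 1 of the 3 of FOSB, the 1 of FOSL1 and 2 of the 9 of FOSL2.
FOS (chr14:75282057-75282086, plus strand): ttgtgtttttaATTTATTTAttaagatgga
FOSB (chr19:45473876-45473905, plus strand): tcctgctggagtgATTTAtactgtgaaatg
FOSL1 (chr11:65892272-65892301, minus strand): gagggcagctgctATTTAttttcctaaaga
FOSL2 (chr2:28416348-28416377, plus strand): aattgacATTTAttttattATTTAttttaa

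FOS, the densest, fell, JUNB, the next densest, did not pass the test, and ATF2 at 3.39 per kb rose. The other members that fell were BATF3 at 2.68 per kb and FOSL2 at 1.85. The other members that rose were JUN at 2.33 per kb, JUND at 1.47, FOSB at 1.38 and FOSL1 at 1.19. BATF, with none, did not pass. The relation of density to change was not tested. Among the 8 genes listed as binding AU-rich messages, 4 were lower and 2 higher, against 24.7% and 25.8% of all tested genes, and their median log2 change was -0.22. ZFP36L2, a decay factor of the tristetraprolin family, went from 734 ± 22.1 to 190 ± 43.9 CPM (mean ± SD, n = 3 each), a log2 change of -1.95 (SE 0.14, edgeR adjusted p = 3.2e-08). Its relatives moved the other way. ZFP36, tristetraprolin itself, rose by 0.95 on the log2 scale (SE 0.11, edgeR adjusted p = 3.38e-06) from 99.4 ± 5.22 CPM (n = 3), and ZFP36L1 by 0.70 (SE 0.18, edgeR adjusted p = 0.00486). HNRNPD, which encodes AUF1, had a log2 change of -0.53 (edgeR adjusted p = 0.00017), and TIAL1, a translational silencer, one of -0.44 (edgeR adjusted p = 0.000382).

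Factors that bind the FOS and JUN promoters were mostly lower. Of the 12 on this list, all tested, 9 were lower and 2 higher, with a median log2 change of -0.42, against 24.7% lower and 25.8% higher of all tested genes. MEF2D, which binds the JUN promoter, went from 339 ± 5.61 to 154 ± 12.7 CPM (mean ± SD, n = 3 each), a log2 change of -1.14 (SE 0.09, edgeR adjusted p = 8.78e-08). CREB1, the factor of the cAMP response element whose core is shown in the promoters, went from 119 ± 8.31 to 76.0 ± 3.50 CPM (mean ± SD, n = 3 each), a log2 change of -0.65 (edgeR adjusted p = 1.97e-05). MKL2, a cofactor of serum response factor, fell by 0.96 on the log2 scale (edgeR adjusted p = 3.19e-05), and ELK4, a ternary complex factor, by 0.56 (edgeR adjusted p = 0.000132). The 2 higher genes were ELK1, another ternary complex factor, with a log2 change of 0.73 (edgeR adjusted p = 0.00073), and MEF2A, with 0.43 (edgeR adjusted p = 0.000843). SRF, the serum response factor, named after its values were seen, had a log2 change of -0.34 (edgeR adjusted p = 0.00323).

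Dimer partners and partners at composite sites were mostly higher. Of 16 listed, 15 were tested, 10 were higher and 1 lower, with a median log2 change of 0.45, against the same background of 25.8% and 24.7%. The lower one was IRF8, the partner of BATF factors at composite sites in myeloid cells, with a log2 change of -2.24 (SE 0.12, edgeR adjusted p = 2.03e-09). MAFG, a small MAF protein without a transactivation domain, rose from 141 ± 20.3 to 367 ± 55.0 CPM (mean ± SD, n = 3 each) with a log2 change of 1.38 (edgeR adjusted p = 3.38e-07). DDIT3, the stress factor CHOP, went from 30.5 ± 1.62 to 96.6 ± 30.4 CPM (mean ± SD, n = 3 each), a log2 change of 1.66 (edgeR adjusted p = 1.07e-06). ATF3, a stress-induced partner of JUN proteins chosen after its values were seen, had 3.92 ± 0.339 and 13.6 ± 2.47 CPM (mean ± SD, n = 3 each) and a log2 change of 1.78 (edgeR adjusted p = 1.38e-06).

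Calls among the MAP kinases above AP-1 were near the background. Of 18 listed and 17 tested, 4 were higher, 3 lower and 10 did not pass, with a median log2 change of 0.09, so that 41.2% of them passed, against 50.5% of all tested genes. The difference was not tested. MAP3K5, the stress kinase ASK1, had a log2 change of -0.96 (SE 0.10, edgeR adjusted p = 1.82e-06), and MAP2K6, which activates p38, one of -1.31 on 3.41 ± 0.607 CPM with DMSO (n = 3, edgeR adjusted p = 0.000752). MAP2K1, the kinase MEK1, was higher by 0.45 (edgeR adjusted p = 0.000878) and MAP3K11 by 0.52 (edgeR adjusted p = 0.00125). Messages do not report the activity of kinases. Ubiquitin ligases and cofactors that remove FOS and JUN proteins gave 2 lower genes of 7 tested, near the background of 24.7% lower, namely CUL4A with a log2 change of -0.35 (edgeR adjusted p = 0.00266) and DDB1 with -0.27 (edgeR adjusted p = 0.00978). The count of higher genes on that list was 0 in edgeR, against 25.8% of all tested genes. It was also 0 at an unadjusted p under 0.05, and 0 in DESeq2. Whether this count differs from the share over all genes was not tested.

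Genes with known AP-1 sites did not move in one direction. Of 27 names, 26 had rows and 20 were tested, of which 7 were higher, 6 lower and 7 did not pass, with a median log2 change of -0.02, against 25.8% higher and 24.7% lower of all tested genes, which is near these shares. HMOX1, heme oxygenase, whose enhancers bind NRF2 and small MAF proteins as well as AP-1, went from 9.26 ± 0.649 to 3370 ± 658 CPM (mean ± SD, n = 3 each), a log2 change of 8.51 (SE 0.18, edgeR adjusted p = 1.73e-13). PLAUR, the urokinase receptor, rose by 0.91 on the log2 scale (edgeR adjusted p = 1.31e-05). THBD, thrombomodulin, went the other way, from 194 ± 32.8 to 25.5 ± 2.32 CPM (mean ± SD, n = 3 each) with a log2 change of -2.92 (edgeR adjusted p = 2.44e-10), as did CCL2, a monocyte chemokine, with -2.64 (edgeR adjusted p = 3.89e-06).

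**Figure D5:**
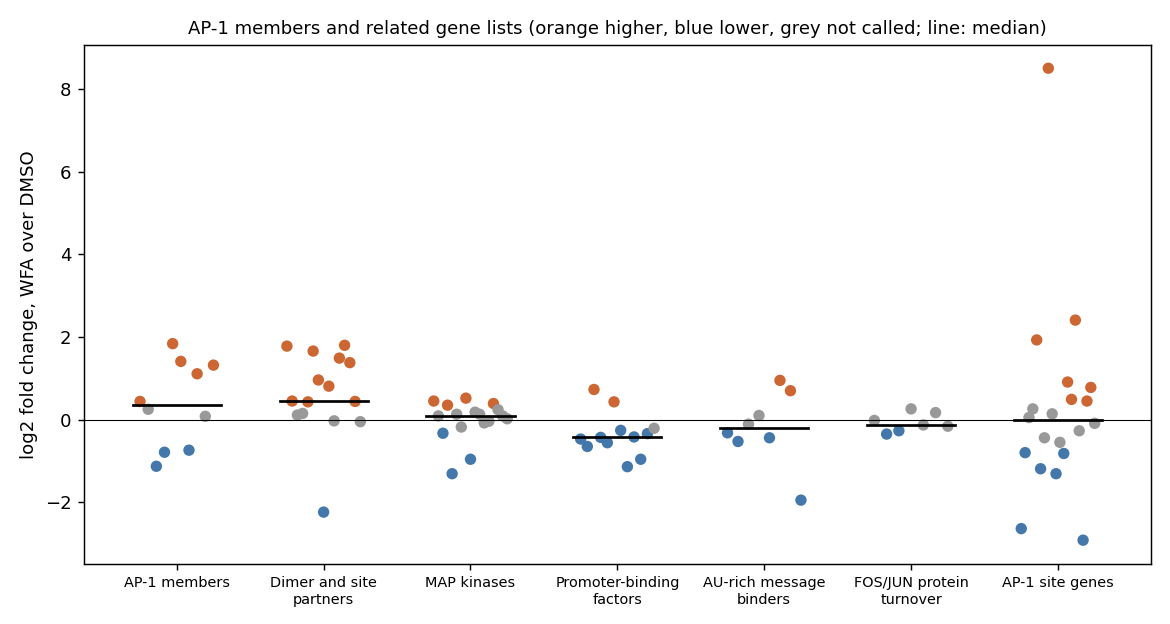
Log2 change, WFA over DMSO, of each tested gene of the AP-1 family and of the related lists, in alphabetical order within a list. Orange genes passed the edgeR test upwards, blue genes downwards and grey genes not at all, and the black line is the list's median, which runs from -0.42 for the promoter-binding factors to 0.45 for the partners. The point at 8.51 is HMOX1.

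Some genes outside these lists followed the pattern of the extreme members most closely. Likeness was the Euclidean distance between log2 CPM values centred on each gene's mean, over the 6 libraries and among 11706 genes. Nearest to FOSB were TSPYL2 at a distance of 0.53, C6orf165 at 0.54 and LOC729603 at 0.57, with log2 changes of 1.51, 1.79 and 1.93. Nearest to BATF3 were METTL7A at 0.32, ABCA6 at 0.37 and PYCARD, the inflammasome adaptor, at 0.38, with log2 changes of -1.03, -0.97 and -0.80. The direction of these changes follows from how the genes were chosen.

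Library totals lay between 11006035 and 13872810 reads counted on genes. All 10 monocytic markers were detected, with summed levels of 2690 to 3230 CPM with DMSO and 2360 to 3150 CPM with WFA, and 5 of them were lower and 1 higher, against 24.7% and 25.8% of all tested genes. Of 12 markers of T, B, erythroid, epithelial and fibroblast cells, 2 passed the filter and both were higher with WFA, and the summed level of the 12 was 1.19 to 2.41 CPM with DMSO and 10.7 to 14.4 CPM with WFA. Most of it was COL1A1, a collagen gene, at 0.453 ± 0.333 and 9.94 ± 2.26 CPM (mean ± SD, n = 3 each), while COL1A2, its partner chain, and the hemoglobin genes HBA1 and HBB had no read in any library. The part of these markers in the changes of the AP-1 members was not tested.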

How the data were processed

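RNA of THP1 cells after 6 h with DMSO or WFA was sequenced from TruSeq RNA v2 libraries, which do not mark strand. Raw counts per gene were deposited by the authors, without normalization. The authors also deposited a score for each library (the count over a DESeq2 size factor, as a whole number) and fold changes with p-values of their comparison, and neither was used here. The submitters' processing notes name hg38, bcl2fastq 2.19, Trimmomatic, Bowtie2, Picard, featureCounts and DESeq2. The annotation and the handling of multiply mapped reads are not given in the sources used here, so reads of near-identical or overlapping genes may be split.

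Counts of all genes were fitted with edgeR 4.0.16 (R 4.3.3), with TMM scaling, filterByExpr (minimum count 10) and its quasi-likelihood test without a block, after the design of the study. P-values were adjusted by Benjamini-Hochberg over 12854 genes, with a threshold of 0.05. Standard errors are the log2 change divided by the root of the F statistic. The fit was checked on simulated counts with 200 changed genes, where it recovered 94.9% of 2-fold changes and 2.55% of its calls were false. That share of changed genes was far below the 50.5% that passed here, so the check does not cover this setting. CPM use the TMM factors, differences within an experiment use a pseudocount of 0.5 CPM, and ratios of counts a pseudocount of 0.5 reads. Total counts were 11006035 to 13872810 per library. The edgeR p-values set the difference between groups against the spread among libraries within groups, without the pairing by experiment. That spread was not a gene's own alone, since the fit drew it towards a trend over all genes (prior degrees of freedom 10.8).

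Same-numbered libraries share an experiment code in the labels, and their deviations from the group means correlated at 0.22, 0.33 and 0.25, against -0.26 to 0.00 between different numbers. Libraries of a group differed by more than sampling noise, so none was counted as a duplicate. Alternatives were the replicate block, DESeq2 1.42.0, other scalings and filters, a robust fit and leaving out each library. Coordinates come from GENCODE 29. The members and lists were chosen with earlier results of these data known. All members are named, with up to 4 genes of smallest p past the threshold per list, up to 2 in the opposite direction, and the 3 genes nearest to the members of largest rise and fall. A gene that this rule selects is not reported here. The TGACGT core and the ATTTA search were added after the data had been seen.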

Additional observations from a re-analysis of the deposited data

How the results depend on the processing

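The 5 higher and 3 lower members kept their direction and their side of the threshold in each alternative fitted (other scalings and filters, DESeq2, the replicate block, the robust fit and each library left out in turn), except that FOSB was not fitted at a minimum count of 30. With the replicate block the counts were again 5 and 3, and no member's call changed: JUND had a log2 change of 1.31 and FOSB of 1.83. That fit took each gene's spread wholly from the trend over all genes. It called 3877 genes higher and 3708 lower of 12854, against 3311 and 3178 in the main fit. Unchanged calls under this more liberal fit therefore say little. Leaving out one library moved the log2 change of JUN between 0.85 and 1.22, of FOS between -0.96 and -0.59 and of BATF3 between -1.50 and -0.96. BATF did not pass under any alternative, with adjusted p-values from 0.0735 to 0.395 in edgeR and DESeq2. JUNB, which did not pass either, changed sign with total counts in place of TMM (-0.0022), and ranged between -0.03 and 0.19 with one library left out, at -0.01 without DMSO replicate 1 and -0.03 without WFA replicate 3. The WFA minus DMSO difference in the log2 ratio of FOS to FOSL2, -0.01 with all libraries, ranged between -0.17 and 0.23 with one library left out, with its highest value without WFA replicate 3. The cause was not tested. FOSB rests on 9 to 48 reads per library, and its log2 differences within experiments were 1.88, 0.51 and 1.81.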
